A study of Mus musculus with 7 samples.

Results

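The 4 libraries described here are those whose titles name a control nanoparticle, out of 7 libraries in the series. All were labelled as whole abdominal aorta of male Apoe-/- mice. These have no apolipoprotein E, a ligand that clears lipoproteins from blood, and form plaques in their arteries. The mice ate a high-fat diet for 12 weeks and received Ctrl-LNP, a control lipid nanoparticle, at 50 mg/kg into the vein 1 time a week. The 3 libraries not described here shared the genotype, the diet and the dosing, with ITA-LNP in place of Ctrl-LNP. RNA was taken up in TRIzol and purified with Direct-zol, and 500 ng of it was made into libraries with QuantSeq 3′ mRNA-Seq V2, which reads the 3′ end of each transcript. Whether every library is from a mouse of its own is not in the labels. They also do not say what the control particle contained.

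Circulating blood carries several kinds of RNA. Platelets have no nucleus but keep transcripts from the megakaryocytes that shed them, and young red cells keep globin transcripts after the nucleus is lost. Nucleated leukocytes carry lineage transcripts: receptors of B and T lymphocytes, killer lectin receptors of natural killer cells, and the S100 proteins S100A8 and S100A9 that fill the cytoplasm of neutrophils. Artery wall is made of smooth muscle, endothelium, fibroblasts and a collagen-rich matrix, with fat around it.

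Levels are given in CPM, the reads of a gene per 1000000 assigned reads, and cell-type shares in percent of assigned reads summed over a list of marker genes. Replicates 1 to 4 held 5077073, 6688872, 5199357 and 6097749 assigned reads. For a gene without reads, 3 reads were taken as the upper limit, which is 0.591, 0.449, 0.577 and 0.492 CPM in the same order. Intervals are exact Clopper-Pearson intervals at 95%, and they and these limits cover counting error only. Errors after ± are SD over the 4 libraries (n = 4) or over replicates 1, 3 and 4 (n = 3).

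Replicate 2 stood apart from the other 3 libraries, and the means of lists and leading genes are therefore also given without it. It held 10846 detected genes, against 15333, 14232 and 14429 in replicates 1, 3 and 4, although it was the deepest of the 4. Thinned to the depth of replicate 1, it still held only 10226, against 15333, 14213 and 14317. Across 32544 genes, which are not independent replicates, log2(CPM + 1) in replicate 2 correlated with the other libraries at Pearson's r of 0.727 to 0.739. Replicates 1, 3 and 4 correlated among themselves at 0.970 to 0.975. Of these genes, 15687 had no reads in any library. Over the 12523 genes with a mean of at least 1 CPM, r was 0.603 to 0.621 with replicate 2 and 0.917 to 0.934 among the others.

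The marker genes of blood cells were abundant in all 4 libraries and the defining markers of the artery wall were scarce. Nrgn, Pf4 and Ppbp, which platelets carry, averaged 7140.3 ± 1805, 2414 ± 600.0 and 1689 ± 856 CPM (SD, n = 4), and 6920.0 ± 2143, 2531 ± 677 and 1268 ± 187 CPM without replicate 2 (n = 3). Acta2, the smooth muscle actin, averaged 98.9 ± 29.8 CPM, Col1a1, a chain of the main fibrillar collagen, 44.4 ± 17.6 CPM, and Cdh5, the cadherin of endothelial junctions, 0.904 ± 0.636 CPM. Without replicate 2 these were 97.9 ± 36.4, 45.2 ± 21.5 and 1.20 ± 0.249 CPM. Lists of platelet, globin, other erythroid, B cell, immunoglobulin constant, T cell, natural killer, monocyte and neutrophil genes, 9 in all, together took 8.06%, 8.19%, 5.20% and 4.78% of the reads in replicates 1 to 4. The 5 wall lists, smooth muscle, matrix, endothelial, fibroblast and adipocyte, took 0.176%, 0.201%, 0.106% and 0.114%. The marker lists of blood cells thus took far more reads than those of the labelled tissue, whole aorta, and the libraries are called here by their group, control-LNP. The sums are not adjusted for list length, which was 26 genes for platelets and 12 for smooth muscle, for example. The lists were also chosen with earlier results of these data known. In bulk RNA, fewer cells of a type and less RNA per cell cannot be told apart.

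**Figure D1:**
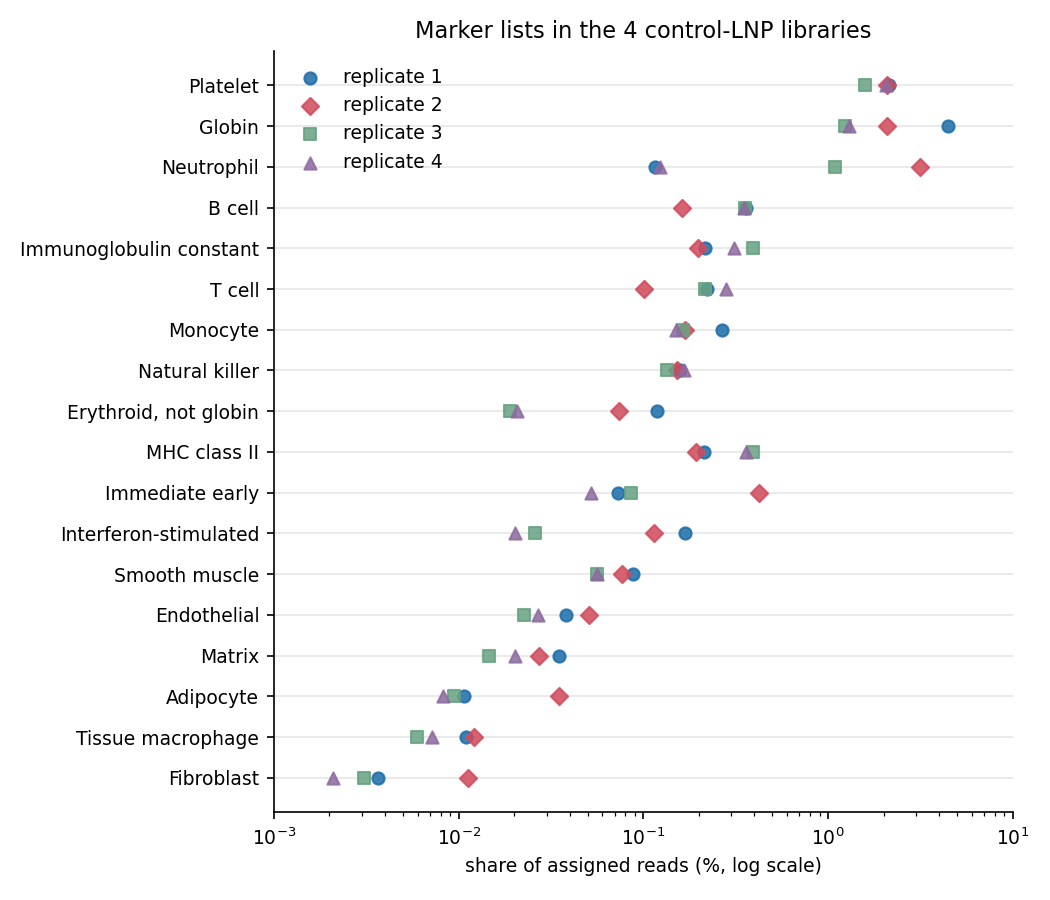
Summed share of assigned reads (percent, log scale) for 18 marker lists, with 1 symbol per control-LNP library. Platelet genes lie between 1.59% and 2.15% in all 4 libraries, neutrophil genes spread from 0.115% to 3.15%, and the wall lists from smooth muscle to fibroblast stay under 0.1%.

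The genes at the top of the ranking by mean CPM mixed housekeeping transcripts with transcripts of platelets, red cells and neutrophils. Of the top 25, 9 were ribosomal protein genes and 5 were encoded in the mitochondrion. Rps27, of the small ribosomal subunit, led at 11608 ± 7004 CPM, followed by Tpt1, the translationally controlled tumor protein, at 11202 ± 2404 CPM (13910.3 ± 6464 and 12029 ± 2138 CPM without replicate 2). Hbb-bs, an adult beta globin, was the third at 11162 ± 8280.0 CPM (11137 ± 10141 without replicate 2). Ctla2a, an inhibitor of cysteine proteases, was at 9600.2 ± 2137 CPM, Tmsb4x, the actin-binding thymosin beta 4, at 8728 ± 5146 CPM, and Actb, the cytoplasmic beta actin, at 8713 ± 3403 CPM. Without replicate 2 these 3 were at 10388 ± 1768, 6225 ± 1458 and 9689.9 ± 3413 CPM. Nrgn was the eighth, and Hba-a2, an alpha globin, followed at 5759.6 ± 2609 CPM (5756 ± 3195 without replicate 2). S100a8 was at 4644 ± 5455 CPM, but at 2256 ± 3227 CPM without replicate 2, which moved it from place 19 to place 55.

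Some of these ranks rest on how reads were split between near-identical genes. Rps27rt, the seventh at 8198 ± 5950.2 CPM (10419.5 ± 4847 without replicate 2), is identical to Rps27 over 341 aligned bases, and Rps27 over Rps27rt was 1.31, 3.07, 1.30 and 1.39 in replicates 1 to 4. Gm4149, a processed pseudogene that differs from Rpl37a at 1 of 276 bases, was at 232, 3397, 10647 and 3606 CPM. Single levels within such pairs are uncertain.

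Without replicate 2, 21 of the top 25 stayed in the top 25, and 20 stayed when genes were ranked by their median. Rps28, mt-Atp6, mt-Co2 and Hba-a1 entered the ranking when replicate 2 was left out. Only 9 of the 25 were among the 25 most abundant genes of each library. Replicates 3 and 4 shared 23 of their own 25 leading genes, replicates 1 and 4 shared 21, and replicate 2 shared 9 or 10 with each of the others.

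The libraries also differed in how far reads were concentrated on few genes. The 25 most abundant genes of each library took 16.1%, 20.6%, 19.3% and 18.0% of the reads in replicates 1 to 4, most in replicate 2. The 100 most abundant took 29.4%, 36.4%, 38.5% and 34.4%, most in replicate 3. Ribosomal protein genes took 12.9%, 10.8%, 23.1% and 19.0%, so that replicates 3 and 4 were high, replicates 1 and 2 low, and replicate 2 was the lowest (16.5% ± 5.61, n = 4; 18.3% ± 5.10 without replicate 2, n = 3).

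Platelet and megakaryocyte genes varied least among the lists that took more than 1% of reads on average, when all 4 libraries were counted. Their 26 members took 2.15%, 2.10%, 1.59% and 2.07% of the reads in replicates 1 to 4, with replicate 3 lowest (interval 1.58 to 1.60%). The mean was 1.98% ± 0.258 (SD, n = 4) and 1.94% ± 0.300 without replicate 2 (n = 3). The coefficient of variation between libraries, the SD as a percent of the mean, was 13.1%, far above the 0.295% that counting error gives at this depth. Without replicate 2 it was 15.5%, and the list of genes shared by leukocytes, at 7.66%, then varied less. The list was the first of the 9 blood lists in replicates 3 and 4 and the second in replicates 1 and 2. Here and below, list members named beyond the 4 most abundant were chosen after their values were seen, apart from those singled out by the ratio or variation rules.

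Nrgn (chromosome 9, 37544492 to 37552904, mm10), which encodes neurogranin, a calmodulin-binding protein, made up 36.1% of the platelet share. It was at 8957, 7801, 4684 and 7119 CPM in replicates 1 to 4 (6920.0 ± 2143 without replicate 2). Replicate 3 was the lowest of the 4 and replicate 2 lay within the range of the others. Pf4 (chromosome 5, 90772435 to 90773383), the chemokine platelet factor 4 of the alpha granules, ran the other way, at 1775, 2065, 2737 and 3081 CPM (2531 ± 677 without replicate 2). Nrgn over Pf4 was accordingly 5.05, 3.78, 1.71 and 2.31, so the ratio of these members differed between libraries more than the list's sum did. A ratio of members that run opposite ways varies more than their sum by its choice. The composition of the whole list was not measured.

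Ppbp (chromosome 5, 90768518 to 90770063), the precursor of a neutrophil-attracting platelet chemokine and the neighbour of Pf4, was at 1153, 2952, 1166 and 1484 CPM. Replicate 2 was 1.99 times the highest of the others, and the mean was 1268 ± 187 CPM without it. Gng11, a G protein gamma subunit, was at 1515, 2800.2, 1744 and 1624 CPM, again highest in replicate 2. Gp9, part of the receptor by which platelets bind von Willebrand factor, was among the most even members at 286, 275, 258 and 308 CPM (282 ± 20.9; 284 ± 25 without replicate 2). Clec1b, the podoplanin receptor CLEC-2, was at 583, 443, 600.1 and 639 CPM.

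Replicate 2 lacked some platelet transcripts that the other libraries held. The comparison was made over genes at 20 CPM or more in each of replicates 1, 3 and 4, which were 22 of the 26 platelet genes and 5199 genes in all. Of the 22, 5 were more than 16-fold under the lowest of the other libraries, while 36.4% of the 5199 genes were. The 5 were Gp1ba, Treml1, Rab27b, Mmrn1 and Tmem40. Rab27b, a GTPase of granule secretion, was at 128, 0.299, 85.8 and 146 CPM, and Gp1ba, the von Willebrand factor binding chain of the complex that also holds Gp9, at 21.1, 0, 29.6 and 27.2 CPM. Another 5 of the 22 were above the highest of the other libraries, against 28% of all 5199 genes, and 10, the 5 lacking ones included, were below the lowest, against 61.5%.

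Globin genes varied more. Of 9 in the table, 2 were at 0 reads in every library. The sum was 4.45%, 2.09%, 1.24% and 1.31% of reads in replicates 1 to 4 (2.27% ± 1.5, n = 4; 2.33% ± 1.84 without replicate 2, n = 3). Replicate 1 was the highest, 3.6 times replicate 3 (interval of replicate 1 4.43 to 4.47%), and leaving out replicate 2 did not lower the spread. Hbb-bs (chromosome 7, 103826534 to 103828096) was at 22842, 11237, 4992 and 5578 CPM and was the most abundant gene of replicate 1. Hba-a2 (chromosome 11, 32296489 to 32297298) was at 9439.9, 5770.5, 4084 and 3744 CPM, Hba-a1 at 7155, 2614, 2419 and 2766 CPM, and Hbb-bt at 5070.2, 1327, 866 and 979 CPM. Hba-a1 and Hba-a2 differ at 1 of 538 aligned transcript bases, so reads could be split between them by the counting, and their separate levels are uncertain.

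Erythroid genes other than globins were scarce and followed the order of the globins: 0.119%, 0.0739%, 0.0189% and 0.0207% of reads. Bpgm, the enzyme that makes 2,3-bisphosphoglycerate in red cells, was at 538, 482, 73.7 and 70.4 CPM. Alas2, the erythroid enzyme of the initial step of heme synthesis, was at 178, 176, 20 and 18.7 CPM. Replicates 1 and 2 were thus high and replicates 3 and 4 low for both. Fech, the enzyme that inserts iron into heme, parted from them in replicate 2, at 111, 0.598, 16.3 and 16.6 CPM. Klf1, the erythroid transcription factor of precursor cells, was at 0 in every library, which allows up to 0.591 CPM.

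The sum of the B cell genes was almost identical between replicates 1, 3 and 4, though single members differed. The 18 members summed to 0.361%, 0.163%, 0.356% and 0.353% of reads. Without replicate 2 the mean was 0.356% ± 0.0041 (n = 3), a coefficient of variation of 1.15%, and with it 0.308% ± 0.0969 (n = 4). Replicate 2 lay far below the others (interval 0.160 to 0.166%). All 18 members were detected in every library.

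The B cell genes differed in how far replicate 2 lay below the others. Ms4a1 (chromosome 19, 11249675 to 11266241), which encodes the B cell antigen CD20, was at 562, 1.64, 584 and 595 CPM. Replicate 2 was 342 times lower than the lowest of the other libraries. Cr2, the complement receptor CD21 of mature B cells, showed the same pattern at 174, 0.449, 139 and 185 CPM. Of 17 members over 20 CPM in the other libraries, 3 were more than 16-fold under the lowest of them (Ms4a1, Cr2 and Fcmr) and 12 were below the lowest, against 36.4% and 61.5% of all 5199 genes.

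Other B cell genes were closer to the other libraries in replicate 2, or above them. Cd79a (chromosome 7, 24897381 to 24902197), a signalling chain of the B cell receptor, was at 493, 182.4, 344 and 332 CPM (338 ± 127; 389.5 ± 89.6 without replicate 2). Pax5, a transcription factor that keeps B cells in their lineage, was at 258, 179, 202 and 268 CPM, and Bank1, a scaffold of B cell receptor signalling, at 459.5, 150.2, 371 and 429.7 CPM. Ly6d, a surface protein of B lineage cells, was at 144, 165, 263 and 228 CPM, where replicate 2 lay within the range of the others. Vpreb3 was highest in replicate 2, at 11.6, 125, 38.5 and 23.8 CPM.

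Immunoglobulin constant genes summed to 0.216%, 0.197%, 0.392% and 0.308% of reads (0.278% ± 0.0900, n = 4; 0.305% ± 0.0879 without replicate 2, n = 3). Ighm, the constant region of IgM, made up 55.6% of that share, at 1196, 1305, 2069 and 1623 CPM. Ighd, that of IgD, was at 303, 176, 550.1 and 419 CPM. Naive B cells carry both. Ighm over Ighd was 3.94, 3.76 and 3.87 in replicates 1, 3 and 4 and 7.43 in replicate 2. The kappa constant gene Igkc was at 295, 46.3, 358 and 344 CPM, low in replicate 2, while the lambda gene Iglc2 was at 138, 418, 373 and 293 CPM and highest there. Iglc3, a near neighbour of the same family, was at 117, 1.20, 380.0 and 285 CPM. Since lambda constant genes are alike in sequence, the split of reads between them is uncertain. Plasma cell genes were scarce at 0.00454 to 0.0135% of reads.

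Genes of antigen presentation by MHC class II, which B cells, monocytes and dendritic cells express, summed to 0.212%, 0.192%, 0.392% and 0.358%. H2-Aa, the alpha chain of I-A, was at 609, 612, 1936 and 1715 CPM, so replicates 3 and 4 were high and replicates 1 and 2 low. H2-Ab1, its beta chain partner, was more even at 369, 522, 619.5 and 533 CPM. Of the 10 members, 5 were more than 16-fold under the lowest of the other libraries in replicate 2, against 36.4% of the 5199 genes. Among the 5 were the peptide loading chains H2-DMa, H2-DMb1 and H2-DMb2. The sum of MHC class I genes, made by nearly all nucleated cells and carried by platelets, went the other way in replicate 2: 0.578%, 1.18%, 0.648% and 0.636%. B2m, the light chain, was at 2001, 5344, 2413 and 2179.8 CPM. Of 9 members at 20 CPM or more in the other libraries, 5 were above and 2 below their range in replicate 2. Of all 5199 genes, 28% and 61.5% were. Tap1 was the 1 member more than 16-fold under, against 36.4% of the 5199 genes.

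T cell genes summed to 0.223%, 0.101%, 0.215% and 0.282% of reads (0.205% ± 0.0756, n = 4; 0.240% ± 0.0369 without replicate 2, n = 3). Il7r, the interleukin 7 receptor of naive and memory T cells, led at 407, 260.1, 247 and 388 CPM. Trbc2, a constant region of the T cell receptor beta chain, was at 121, 138, 225 and 271 CPM, and Cd3d, a chain of the CD3 complex, at 164, 71.5, 211 and 215 CPM. Trac, the alpha chain constant region, was low but even at 20.1, 25.3, 17.3 and 21.8 CPM. Each of these was present in replicate 2.

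Some T cell genes were nearly absent from replicate 2. Of 20 of the 30 members that reached 20 CPM in the other libraries, 9 were more than 16-fold under the lowest of them, a share near the 36.4% of all such genes. Cd8a, the alpha chain of CD8, was at 87.8, 0, 101 and 179 CPM, where a count of 0 allows up to 0.449 CPM, so replicate 2 was at least 196-fold lower than the lowest other library. Cd8b1, the beta chain of the same coreceptor and a gene close by on chromosome 6, was at 108, 123, 93.1 and 174 CPM. The chains of this heterodimer thus differed in replicate 2, where the alpha chain was at 0 and the beta chain within the range of the other libraries. Ccr7, the homing receptor of naive T cells, was at 111, 0.748, 126 and 139.7 CPM.

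Natural killer genes gave the most even sum of the 9 blood lists over all 4 libraries, at 0.158%, 0.151%, 0.135% and 0.167% of reads (0.153% ± 0.0134, n = 4; 0.153% ± 0.0164 without replicate 2, n = 3). Below that even sum the members again differed. Gzma, granzyme A, was at 264, 411, 208 and 269 CPM. Klrk1, the activating receptor NKG2D, varied least of the 4 leading members at 139, 163, 152 and 154 CPM. Nkg7, a cytotoxic granule protein, was at 82.7, 279.9, 104 and 141 CPM, highest in replicate 2. Klrb1c, the receptor NK1.1, was at 87.6, 0.299, 81.2 and 92.7 CPM, and Ncr1, the receptor NKp46, at 24.8, 0, 21.7 and 40.5 CPM, both near 0 in replicate 2. Of the 12 among 23 members that reached 20 CPM in the other libraries, 6 were above and 6 below the range of the other libraries in replicate 2, against 28% and 61.5% of all 5199 genes.

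Ccl5 (chromosome 11, 83525778 to 83530518), a chemokine that T cells, natural killer cells and platelets carry, cannot be assigned to 1 of these. It was at 759, 1390.2, 1447 and 2104 CPM (1425 ± 549.8; 1437 ± 673 without replicate 2), with replicate 4 highest and replicate 2 inside the range. The B cell sum over the T cell sum was 1.62, 1.61, 1.66 and 1.25, so the ratio in replicate 2 was near that in replicates 1 and 3. Both of its sums were low, and 3 of 17 B cell and 9 of 20 T cell genes were more than 16-fold under the other libraries there. The ratio therefore does not show that the balance of B and T cells was kept.

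Monocyte genes summed to 0.267%, 0.168%, 0.164% and 0.151% of reads (0.187% ± 0.0538, n = 4; 0.194% ± 0.0639 without replicate 2, n = 3), with replicate 1 above the rest. Ms4a6c, a membrane protein of monocytes, was at 508, 106, 229.6 and 215 CPM, and Csf1r, the receptor of macrophage colony-stimulating factor, at 477, 150.1, 206 and 201 CPM. Ccr2, the chemokine receptor of classical monocytes, was at 270.0, 92.5, 153 and 166 CPM. Replicate 1 was the highest for all 3 and replicate 2 the lowest. Ly6c2, which marks classical monocytes, was at 267, 9.27, 190.2 and 122 CPM. Cx3cr1, which is high on patrolling monocytes, was at 70.9, 132, 44.2 and 48.2 CPM and so highest in replicate 2. These genes do not stand for the list. Of 15 members at 20 CPM or more in the other libraries, 4 were above and 8 below their range in replicate 2. Of all 5199 genes, 28% and 61.5% were. Ms4a4c and Treml4 were more than 16-fold under the lowest of the others, against 36.4% of the 5199 genes. Genes of tissue macrophages were scarce, at 0.00596 to 0.0122% of reads, and Folr2 and Vsig4 among them were at 0 in every library.

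Neutrophil genes varied most of the 9 blood lists. The 28 members, of which 1 was at 0 throughout, summed to 0.115%, 3.15%, 1.09% and 0.124% of reads in replicates 1 to 4. The highest was 27.3 times the lowest, and 9.46 times without replicate 2. The mean was 1.12% ± 1.43 (n = 4) and 0.444% ± 0.561 without replicate 2 (n = 3), so in both cases the SD exceeded the mean. Neutrophil genes were the ninth of the 9 blood lists in replicate 1, the first in replicate 2, the third in replicate 3 and the eighth in replicate 4. Intervals did not overlap between any of the libraries and the widest was 3.13 to 3.16%.

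S100a9 (chromosome 3, 90692632 to 90695721), a calcium-binding alarmin, was at 528, 10638, 3361 and 457 CPM (3746 ± 4789; 1449 ± 1656 without replicate 2). S100a8, its partner in calprotectin and its neighbour on chromosome 3, was at 307, 11809, 5981 and 479 CPM. Replicate 3 was therefore high as well, and replicates 1 and 4 low. The ratio of S100a8 to S100a9 was 0.581, 1.11, 1.78 and 1.05. Retnlg, a resistin-like secreted protein of neutrophils, was at 39.4, 2980.3, 666 and 63.0 CPM, and Mmp8, the neutrophil collagenase, at 14.4, 797, 105 and 23.8 CPM. Of the 28 genes, 6 were at 20 CPM or more in each of replicates 1, 3 and 4, and in replicate 2 all 6 were above the highest of these, against 28% of the 5199 genes.

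Transcripts of neutrophil precursors did not rank with those of mature cells. Elane, Prtn3 and Ctsg, proteases of primary granules made in the marrow, and Cebpe were at 0 reads in all 4 libraries. Ltf, Camp and Ngp, contents of secondary granules, were at most 5.32, 3.46 and 4.43 CPM. Lcn2, lipocalin 2, was the exception at 5.12, 321, 16.5 and 3.77 CPM, highest where S100a8 was highest. It was the only 1 of the 9 members with reads in replicate 2, so the highest levels of Ltf, Camp and Ngp were in the other libraries. Replicate 2 lacked many genes of low level, so 0 reads there say little.

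Immediate early genes, which cells transcribe within minutes of stimulation, were high in replicate 2 as well. The 10 members summed to 0.0728%, 0.425%, 0.0854% and 0.0520% of reads (0.159% ± 0.178, n = 4; 0.0701% ± 0.0169 without replicate 2, n = 3). Fos, a subunit of the AP-1 transcription factor, was at 112, 1802, 153 and 65.3 CPM, and Ier2 at 59.1, 556, 128 and 73.8 CPM. The 7 members that reached 20 CPM in the other libraries were all above the range of those libraries, against 28% of the 5199 genes. The cytokine genes Il1b and Osm and the neutrophil-attracting chemokine Cxcl2 were likewise high there, at 2275 against 53.1 to 232 CPM, 884 against 7.05 to 9.65 CPM, and 1385 against 7.29 to 85.4 CPM. Il1b is named here after its values were seen. The neutrophil sum was also highest in replicate 2, and its part in these levels was not tested.

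The sum of the interferon-stimulated genes split the libraries differently, with replicates 1 and 2 high and replicates 3 and 4 low: 0.168%, 0.115%, 0.0260% and 0.0203% of reads. Rsad2, the antiviral protein viperin, was at 794, 504, 67.3 and 25.7 CPM. Irf7, a transcription factor of the interferon response, was at 476, 111, 55.4 and 40.8 CPM. Isg15, an interferon-induced ubiquitin-like modifier, was at 43.1, 0, 6.35 and 1.80 CPM, and so at 0 in replicate 2, whereas Oasl2 was highest there, at 68.5, 381, 23.3 and 15.3 CPM. In replicate 2 the list summed to 1149 CPM, so Rsad2 and Oasl2 made up most of it there. Of 3 members at 20 CPM or more in the other libraries, 0 were above their range in replicate 2. Ifit1 was the 1 below it, at a log2 ratio of -4.29 to their mean. Of all 5199 genes, 28% were above and 61.5% below. The split of the sum, which not every member followed, was the same as for Bpgm and Alas2. Whether the 2 are linked was not tested.

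**Figure D2:**
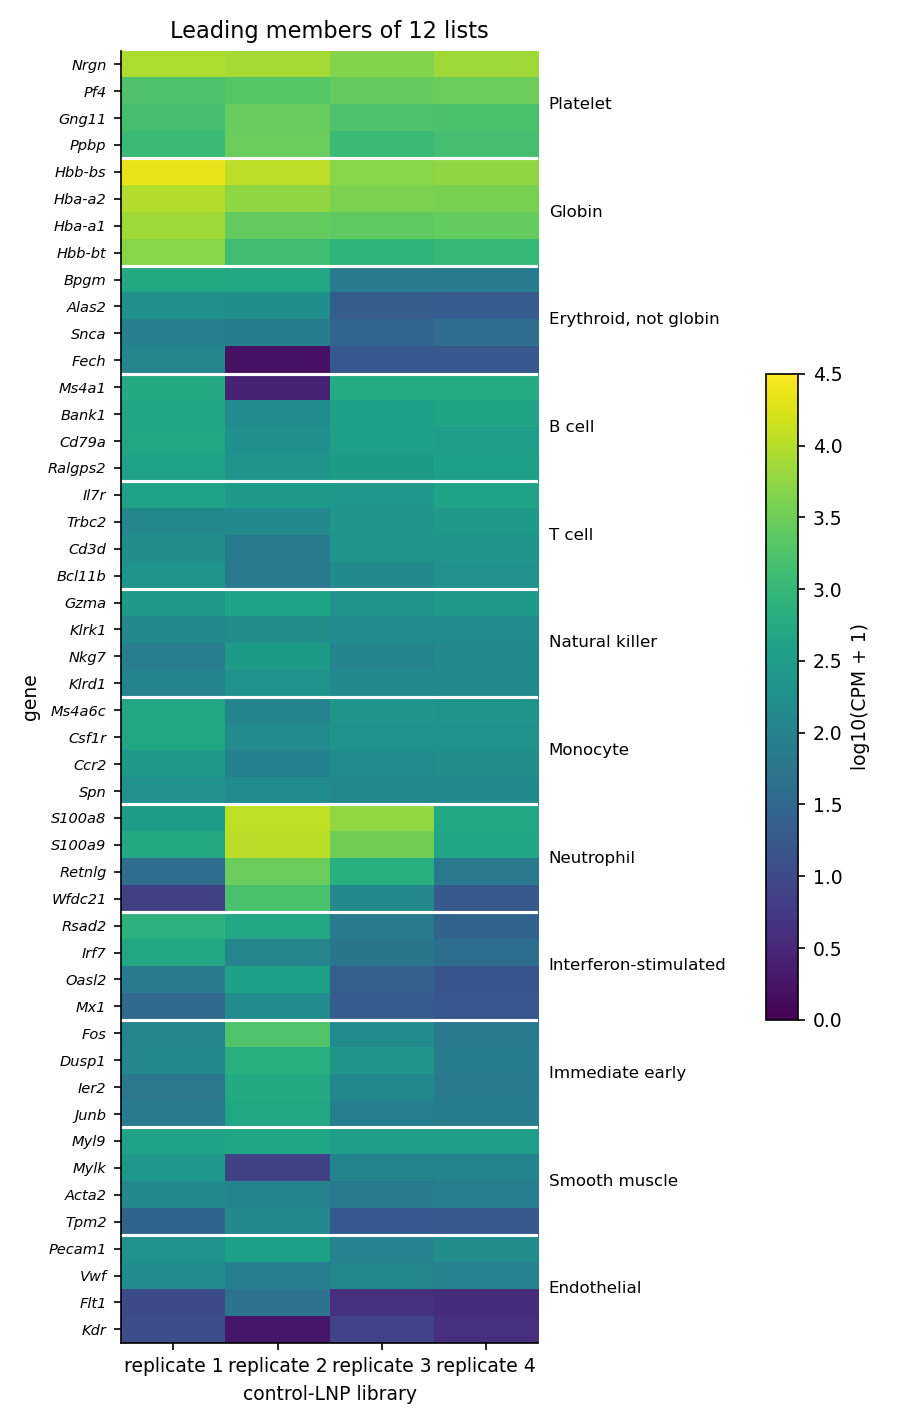
Level of the 4 most abundant members of 12 lists in each control-LNP library, coloured by log10(CPM + 1). Ms4a1 and Fech are dark in replicate 2 only, the neutrophil genes are bright in replicates 2 and 3, and the globins are brightest in replicate 1.

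The wall genes that were detected included several that blood cells also make. Myl9, a myosin light chain of smooth muscle that platelets carry too, made up 53.7% of the smooth muscle share and was at 385, 467, 319 and 315 CPM. Pecam1, which endothelium, platelets and leukocytes share, made up 58.7% of the endothelial share and was at 197, 362, 96.0 and 159 CPM. Without these the smooth muscle and endothelial means were 0.0321% and 0.0143% in place of 0.0692% and 0.0347%, which were 0.0668% and 0.0293% without replicate 2. Acta2 was at 139, 102, 71.9 and 82.3 CPM, Tagln, an actin-binding protein of smooth muscle, at 30.3, 20, 17.7 and 18.4 CPM, and Myh11, the smooth muscle myosin heavy chain, at 11.6, 7.03, 4.04 and 5.41 CPM. Replicate 1 was the highest for each. Col3a1, a fibrillar collagen, was at 56.7, 52.3, 26.9 and 44.9 CPM. Adipoq, the adipocyte hormone adiponectin, was at 0 in every library, which allows up to 0.591 CPM.

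Markers of organs that lie beside the aorta or supply blood proteins were near 0. The hepatocyte, skeletal muscle and other-organ lists reached at most 0.00807%, 0.00108% and 0.00549% of reads. Alb, serum albumin of the liver, was at 32.5 CPM in replicate 4 and 0 in the other 3. The red pulp list, macrophages and stroma of the spleen, took 0.00463%, 0.0194%, 0.00594% and 0.00420%, 72.1% of it from the iron exporter Slc40a1.

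The labels were checked where the data allowed. The Y-linked genes Ddx3y, Eif2s3y, Kdm5d and Uty were read in all 4 libraries, which are labelled male. They summed to 0.0324%, 0.00429%, 0.0254% and 0.0266% of reads, lowest in replicate 2, where Ddx3y was at 6.13 CPM against 115 to 152 CPM. Apoe was at 263, 856, 268 and 274 CPM although all mice were labelled Apoe-/-. A 3′ read can fall outside the deleted part of a gene, so this level checks nothing about the genotype. Xist was not analysed here.

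How many genes replicate 2 lacked depended on their level. Among the 5199 genes at 20 CPM or more in each of the other 3 libraries, it was more than 16-fold under the lowest of them for 54.7% of genes with a mean of 20 to 50 CPM. The share was 38% at 50 to 100 CPM, 23.1% at 100 to 200, 7.24% at 200 to 500, 0.746% at 500 to 1000, and 0 of 123 genes above that. The share of genes above the highest of the other libraries depended little on level, at 23.1 to 30.9%. By contrast, replicates 1, 3 and 4 rarely stood apart from all the other libraries. Of 3032 genes at 100 CPM or more in at least 1 library, the numbers over 4-fold above the highest of the other 3 were 6, 444, 0 and 0 for replicates 1 to 4. The numbers over 4-fold under the lowest were 7, 546, 2 and 6. For replicates 1, 3 and 4 the other 3 include replicate 2. A gene that was as extreme in replicate 2 was therefore not counted for them, which lowers their numbers.

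**Figure D3:**
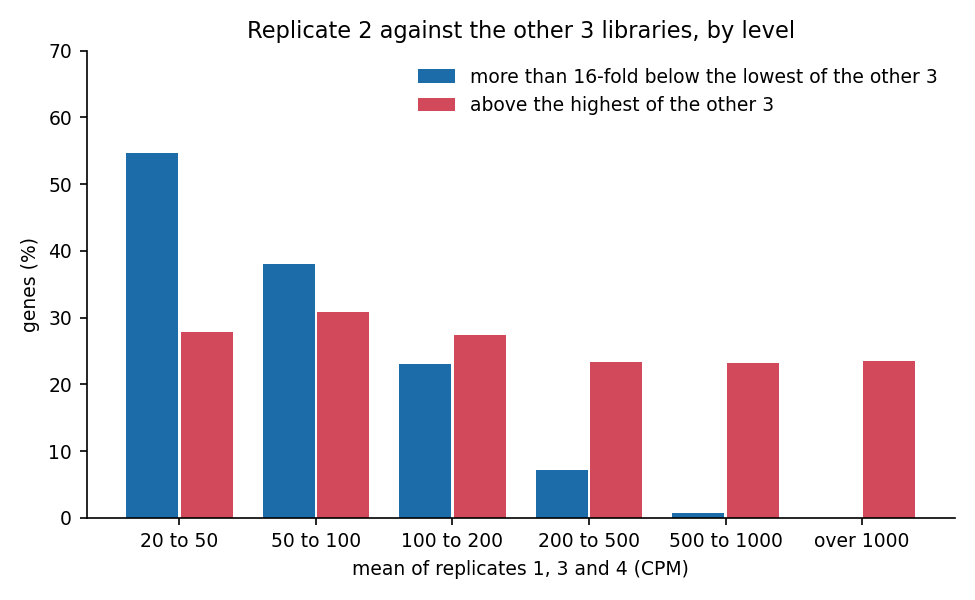
Percent of genes for which control-LNP replicate 2 was more than 16-fold below the lowest of replicates 1, 3 and 4 (blue) or above the highest of them (red), by mean level in those 3 libraries in CPM. The blue bars fall from 54.7% to 0 with level and the red bars stay between 23.1% and 30.9%.

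The list members show both sides of this. Of 12 genes with the most extreme ratio in each direction, Ms4a1, Cr2 and the lymphocyte receptor Gpr183 were low in replicate 2, the last at 124, 0.299, 149 and 199 CPM. Evi2b, a membrane protein of leukocytes, was high, at 0, 424, 0 and 3.12 CPM. Of 16 genes shared by leukocytes, 0 were more than 16-fold lower and 7 were above the range of the other libraries, against 36.4% and 28% of all 5199 genes. The leading members are abundant, and few abundant genes of any kind were that low in replicate 2. Srgn, the granule proteoglycan serglycin, was at 1497, 4094, 1903 and 1661 CPM, and Ptprc, the leukocyte antigen CD45, at 2016, 498, 984 and 1452 CPM.

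**Figure D4:**
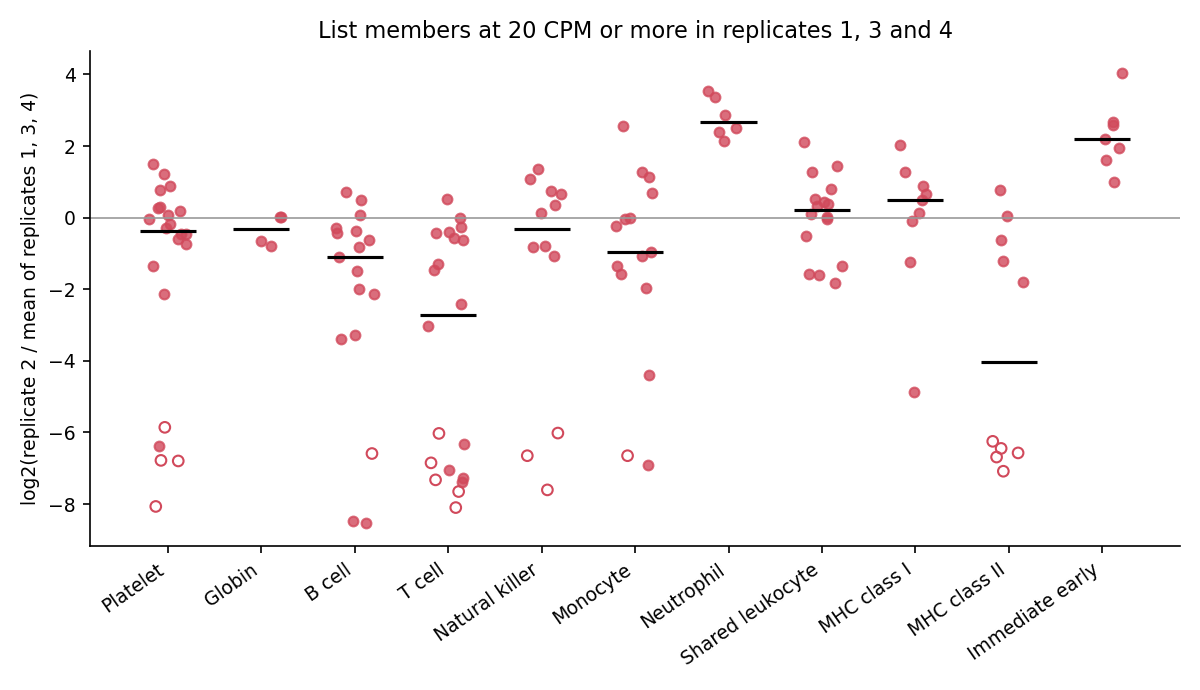
Log2 ratio of control-LNP replicate 2 to the mean of replicates 1, 3 and 4 for each list member at 20 CPM or more in those 3 libraries; black bars are medians, and open circles are members under 3 reads in replicate 2, drawn at the 3-read limit. Neutrophil and immediate early members all lie above 0, while T cell and MHC class II members reach down to the limit.

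In replicate 2, copies of some genes held a larger part of the reads assigned to gene and copy together. Nuclear copies of mitochondrial genes lie side by side on chromosome 1 of GRCm38, the mm10 assembly, and were found after their values were seen. Gm10925 (chromosome 1, 24613974 to 24614651, minus strand), annotated as an unprocessed pseudogene, is identical to mt-Atp6, a subunit of the mitochondrial ATP synthase, over all 678 aligned bases. A stretch of 60 bases near their end, at transcript positions 618 to 677 of each, is shown because a 3′ read there fits either gene equally.
mt-Atp6: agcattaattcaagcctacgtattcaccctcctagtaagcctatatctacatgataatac
Gm10925: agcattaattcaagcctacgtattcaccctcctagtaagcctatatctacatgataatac
Gm29216, a copy of part of mt-Co1, which encodes a subunit of cytochrome c oxidase, differs from it at 1 of 483 aligned bases, the base in capitals below. The stretch is positions 1063 to 1122 of the mt-Co1 transcript and 10 to 69 of the Gm29216 transcript. All sequences are from GENCODE M21.
mt-Co1: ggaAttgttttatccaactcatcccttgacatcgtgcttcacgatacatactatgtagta
Gm29216: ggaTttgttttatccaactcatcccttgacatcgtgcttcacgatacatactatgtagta

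Reads were shared out differently between these genes and their copies in replicate 2. mt-Atp6 was at 3439, 486, 5188 and 5506 CPM and Gm10925 at 8.86, 16276, 32.9 and 2.13 CPM, so the copy held 97.1% of the pair's reads in replicate 2 and 0.0387 to 0.630% elsewhere. The copy of mt-Co2, Gm28661, held 85.9% in replicate 2 and at most 0.00329% elsewhere, and that of mt-Co3, Gm28437, 65.7% and 0. For mt-Co1 and Gm29216 the share on the copy was 59.5% against 24.97 to 28.1%. The sums of the pairs were also high in replicate 2, at 3.04, 3.44, 1.33 and 2.36 times the highest of the other libraries for mt-Atp6, mt-Co2, mt-Co3 and mt-Co1. Mitochondrial genes took 2.81%, 5.22%, 4.18% and 4.5% of reads, and with the 4 copies 2.93%, 9.95%, 4.38% and 4.66%. Gm10925 thus stood in the top 25 by mean through replicate 2 alone.

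**Figure D5:**
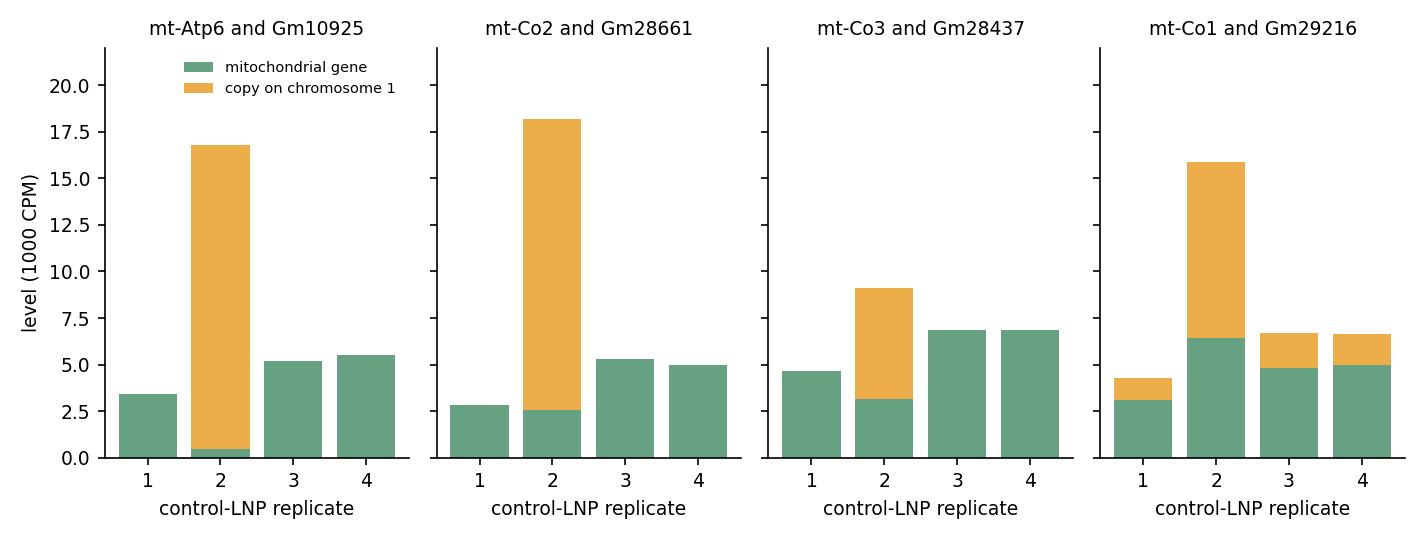
Level, in units of 1000 CPM, of 4 mitochondrial genes (green) and of their nuclear copies on chromosome 1 (orange), stacked, in control-LNP replicates 1 to 4. In replicate 2 the copies hold 59.5% to 97.1% of each pair's reads, and the stacked sum is the highest of the 4 libraries for every pair.

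Other near-identical genes also differed in level between replicate 2 and the rest. Hist2h2aa1 and Hist2h2aa2, histone H2A genes identical over 528 bases, were at 213, 0, 252 and 236 CPM and at 0, 329.5, 0 and 0 CPM. The sum of the pair in replicate 2 was 1.31 times the highest of the others, so the histone transcript itself was present in all 4. Rps16-ps2, a processed pseudogene identical to part of Rps16, was at 0, 1044, 0 and 0 CPM, and Gm15500, a copy of Rpl5, at 0, 1193, 4.62 and 0 CPM. The sums of these pairs in replicate 2 were below the other libraries, at 2668 against 3779 CPM or more for Rps16 and 1757 against 1888 CPM or more for Rpl5. These pairs too were chosen after their values were seen. Levels of single members of such pairs are uncertain, and the cause of the difference was not tested.

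Among replicates 1, 3 and 4 the spread was small for most genes. For 1744 genes with a mean of at least 100 CPM, the median coefficient of variation was 20.01% over those 3 libraries and 39.2% over all 4. Of these genes, 84.5% lay within 2-fold of each other in replicates 1 and 3, 93.8% in replicates 1 and 4, and 96.3% in replicates 3 and 4, against 49.9 to 51.3% in pairs with replicate 2. The variance between libraries was a median of 41.6 times the counting variance without replicate 2, so counting error was a small part of the spread at this level. The largest variation over replicates 1, 3 and 4 was in neutrophil genes (S100a8, S100a9, Retnlg, Wfdc21, Mmp8 and Hdc), in the interferon-stimulated genes Rsad2 and Irf7, and in Bpgm, with Evi2b, Apex2 and Cxcl2 completing the 12. Of these, Wfdc21, Mmp8, Hdc, Evi2b and Cxcl2 reached a mean of 100 CPM only through replicate 2. Without it their means were 1.04 to 51.5 CPM. The smallest was in Hnrnpk, an RNA-binding protein, at 500.1, 503 and 506 CPM in replicates 1, 3 and 4.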

How the data were processed

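RNA levels of the 4 control-LNP libraries were taken from the columns that the table names CTRL1 to CTRL4, read as control-LNP replicates 1 to 4. The deposited table covers 32544 genes, with log10 values made by the authors. Taken as powers of 10 less 1, they summed to 1000000 in each column, so they were read as log10 of CPM + 1, a reading that rests on the values alone. In each library 100% of the values were whole multiples of 1 read within a tolerance of 0.01, which gave the depths. Per the submitters' processing notes the build is mm10. Not given in the sources used here: aligner, counter, annotation, and the use of strand and molecular identifiers. Values were not scaled by gene length, since reads come from the 3′ end.

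No library had a read for 15687 of the 32544 genes, and all 4 had reads for 9859. Names were matched to GENCODE M21 (31357 matched), which gave coordinates on mm10 and the sequences. There were 37 gene lists. In 31 of them members were named, 399 of 403 entries being in the table, and no gene was in more than 1; the other 6 were defined by name pattern. The members and lists were chosen with earlier results of these data known. Per library the CPM of a list were summed, with an exact Clopper-Pearson interval at 95%. Correlations were of log2(CPM + 1), which adds a pseudocount of 1. The coefficient of variation was taken over genes with a mean of at least 100 CPM. The calculations were tested on simulated data.

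Genes were named by a rule: 6 markers (Pf4, Ppbp, Nrgn, Cd79a, Ccl5 and S100a9), the 25 highest means and those entering without replicate 2, the 4 most abundant members of each list, the 12 most and 12 least variable over replicates 1, 3 and 4, and the 12 largest ratios of replicate 2 to the other libraries in each direction. Not every gene so named is reported here; all stayed in the list sums and counts. No groups were compared, and Dixon's outlier check of single libraries was the only test. Alternatives left out each library in turn, removed globin or mitochondrial reads from the total, pooled reads, took medians, removed the most abundant member, changed the pseudocount or the level filters, and thinned the reads; adding nuclear copies to the mitochondrial list was chosen after seeing the data. Python 3.11.15, pandas 2.3.3, numpy 2.4.6, scipy 1.17.1 and matplotlib 3.10.9 were used.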

Additional observations from a re-analysis of the deposited data

Results flagged for a closer look

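Single libraries that stood apart from the other 3 were looked for in 97 sums and gene levels, by the gap of the highest or lowest library to its nearest neighbour as a part of the whole range (Dixon's 95% critical value for 4 libraries). Of the 97, 30 were past it, and in 25 of the 30 the library was replicate 2. Chance flags about 1 in 20 groups, but that rate does not apply here, since the choice of many of the 25 favoured replicate 2. Of the 25, 11 were chosen for small variation over the other 3 libraries and 5 reached the level filter only through replicate 2. The other 9 were not chosen in either way. Among these 9, however, mt-Cytb, mt-Nd4 and Gm10925 were looked at for a top 25 mean, which they reached only through replicate 2. The sums that share genes or a total are not independent of each other.

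Of the list sums, 8 were past it. Replicate 3 was low for platelet genes, at 1.59% of reads, against 2.07 to 2.15% in the others. Replicate 1 was high for monocyte genes, at 0.267%, against 0.151 to 0.168%. Replicate 2 was low for B cell genes at 0.163%, and high for neutrophil precursor genes at 0.0321%, which was Lcn2 alone, spleen red pulp genes at 0.0194%, MHC class I genes at 1.18%, adipocyte genes at 0.0352% and immediate early genes at 0.425%. The adipocyte sum rests on Fabp4, at 328 CPM there, while Lpl of the same list was low, at 3.59 CPM against 22.5 to 30.7 CPM.

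Among abundant genes, replicate 2 was high for mt-Cytb at 11168 CPM, mt-Nd4 at 11227 CPM and Gm10925 at 16276 CPM, and replicate 1 was high for Hba-a1 at 7155 CPM. Among genes that varied most over replicates 1, 3 and 4, replicate 2 was high for Wfdc21 at 1644 CPM, Evi2b at 424 CPM, Hdc, which makes histamine, at 709 CPM, Cxcl2 at 1385 CPM and Mmp8 at 797 CPM. These 5 have a mean of 100 CPM or more only because of that library. Replicate 1 was high for Irf7 at 476 CPM and for Apex2, a nuclease of DNA repair, at 298 CPM, where the others were at 36.4 to 53.8 CPM.

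The genes chosen for the smallest variation over replicates 1, 3 and 4 are prone to this by their choice, and for each of the 11 given here the library that stood apart was replicate 2. It was high for Hnrnpk at 679.8 CPM, Vrk1 at 287 CPM, Tm9sf3 at 215 CPM, Prr13 at 358 CPM, Dstn, an actin-severing protein, at 159 CPM and Apoe at 856 CPM. It was low for Il16 at 74.2 CPM, Slc25a3, the mitochondrial phosphate carrier, at 693 CPM, Ppp3ca, a catalytic subunit of calcineurin, at 149.8 CPM, Rpa1 at 49.0 CPM and Prdx1, a peroxiredoxin, at 127 CPM.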

How the results depend on the processing

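Of 749 alternative values, 13 counted as moved. Gene counts and the median coefficient of variation were judged by a fixed fold. The rest were judged by 1 SD between libraries or pairs of them. Without its most abundant member the platelet mean was 1.26% of reads, that of the immunoglobulin constant genes 0.123% and that of the natural killer genes 0.124%. With 4 nuclear copies added, the mitochondrial mean was 5.48%. The median coefficient of variation of genes, 39.2% over all 4 libraries, ranged from 20.01% to 45.2% when each library was left out in turn, 20.01% being without replicate 2, and was 67.5% for genes with a mean of at least 10 CPM. Among the 396 values that leave out 1 library, this was the only one that moved. For mean shares and levels this was fixed in advance, since they count as moved only beyond 1 SD. Leaving out 1 of 4 libraries cannot shift their mean by that much. The neutrophil mean fell from 1.12% to 0.444% without replicate 2, for example, and did not count as moved. Depth limits genes under 3 reads, and class shares were limited by the spread between libraries. No paired analysis was possible because only 1 group is described, so there is nothing to pair its libraries with.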

Other observations

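Variable gene segments of antigen receptors, which differ between lymphocyte clones, were spread over many genes at low levels. Of 160 kappa variable genes in the table, 42, 3, 44 and 38 had at least 1 read in replicates 1 to 4, and together they took 0.00372%, 4.49e-05%, 0.00690% and 0.00636% of reads. Of 183 heavy chain variable genes, 20, 0, 26 and 20 were detected, and of 170 T cell receptor variable genes 30, 1, 20 and 33. Replicate 2 thus held almost no variable segment reads, although Ighm was at 1305 CPM and Trbc2 at 138 CPM in it. As background, reads from the 3′ end of a receptor transcript lie mostly in its constant segment.

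Genes of the cell cycle were detected at 0.0217%, 0.0233%, 0.0135% and 0.0183% of reads. Top2a, the topoisomerase of dividing cells, was at 75.2, 74.5, 46.0 and 67.6 CPM. Genes of dendritic cells took 0.0220%, 0.0108%, 0.0163% and 0.0193%, led by Ccr9, a chemokine receptor that plasmacytoid cells also carry, at 73.1, 0.299, 47.3 and 68.4 CPM. Genes of eosinophils, basophils and mast cells were near 0, at most 0.00355% of reads in any library.

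By gene type, annotated pseudogenes took 1.56%, 7.03%, 3.21% and 2.35% of reads. The 4 nuclear copies of mitochondrial genes among them took 0.119%, 4.73%, 0.192% and 0.166%.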
